A study of Mus musculus with 10 samples.

Results

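The nuclear genes for the proteins of the mitochondrial ribosome were followed in muscle stem cells (MuSCs) of regenerating muscle. Members were taken by name, as the rows of the deposited count table whose symbol is Mrpl or Mrps followed by a number and, in a few cases, a letter from a to c. This gave 77 genes of the 24608 symbols in the table, and GENCODE (GRCm38) lists all 77. By the known structure of the ribosome, 26 of them belong to the small subunit and 50 to the large subunit, including Mrps18a and Mrps30, which carry a small-subunit name. The remaining member, Mrps36, is no part of the ribosome and is known as a component of the 2-oxoglutarate dehydrogenase complex. The large-subunit gene Mrpl53 was not analysed here. Of the 77 genes, 71 passed the filter on low counts.

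The mitochondrial ribosome makes the few respiratory chain and ATP synthase proteins that the mitochondrial genome encodes. Its ribosomal RNAs come from that genome, while all of its proteins are encoded in the nucleus, made in the cytosol and imported. Some of these proteins descend from the bacterial ribosome, and others were gained by the mitochondrial one. Quiescent MuSCs hold few mitochondria, and activation after injury is accompanied by mitochondrial biogenesis.

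RNA was measured in MuSCs sorted 3 days after cardiotoxin (CTX) injury of muscle, in 5 libraries per genotype and 3000 cells per library. Control mice were Trpm7+/+; Pax7CreERT2/+; Rosa26YFP, and Trpm7 cKO mice were Trpm7 flox/flox; Pax7CreERT2/+; Rosa26YFP. TRPM7 is a cation channel with a kinase domain that carries magnesium. Both genotypes carried the tamoxifen-inducible Cre driven from the Pax7 locus and the YFP reporter, and both received tamoxifen in 5 injections, so that deletion was limited to cells that expressed Pax7 at that time. The mice were adults of 7 to 20 weeks on a C57BL6 background. Trpm7 cKO replicates 4 and 5 carry 1 common number in their labels, and no source used here says what it marks. Where nothing says that libraries come from separate animals, p-values measure the spread between these libraries only.

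The libraries held 914361 to 1097709 counts in controls and 205986 to 581121 in Trpm7 cKO. Trpm7 itself had 66 to 84 counts in controls and 10 to 55 in Trpm7 cKO, and its level did not pass the test (log2 fold change -0.09, edgeR adjusted p = 0.723). These counts come from the 3′ end of the transcript, and no source used here says whether that end lies in the deleted part, so they do not check the labels. All 23 tested leukocyte markers of the 31 listed were higher in Trpm7 cKO, where 24.6% of all tested genes rose. Some passed the filter on low counts only through Trpm7 cKO libraries, such as Cd48 with 0 to 3 control counts and Ccr2 with 1 to 5. For these, being tested already implied higher values. The summed level of all 31, which does not depend on the filter, ranged from 455 to 759 CPM (counts scaled to a common library total of 1e+06) in controls and from 1647 to 7145 in Trpm7 cKO. The T cell gene Cd3e and the B cell gene Cd79a were at 0 in all controls and at most near 0 in Trpm7 cKO. Of the 15 MuSC markers, 14 were tested, 2 fell and 9 rose, so the list did not move as 1. Myod1 fell to 24.4% of the control mean and Itga7 to 66.3%. Pax7 was present in every library and rose to 229.7%. The numbers lower and higher became 5 and 1 per 3000 sorted cells, and 2 and 2 when scaled on the MuSC list itself. Here and below, scaling on the MuSC list left out its genes with the lowest and the highest total count. The gene with the highest total was Myod1, which fell. Per 3000 sorted cells, counts were compared as deposited, with no scaling to library totals. How many molecules were captured and sequenced per library was not measured apart, so this setting does not give RNA per cell.

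Transcripts of the mitochondrial ribosome were on the whole lower in Trpm7 cKO MuSCs. Of the 71 tested members, 32 fell, 3 rose and 36 did not pass the test (edgeR quasi-likelihood test, adjusted p below 0.05 over all 7753 tested genes), where 24.1% of all tested genes fell and 24.6% rose. This is 45.1% of the members called lower. In bulk libraries such as these, fewer cells of a type and less RNA per cell cannot be told apart. Fold changes ran from a log2 value of -2.06 to 0.72, with a median of -0.51, while the median of all tested genes was -0.01. The fitted value was below 0 for 56 of the 71. With the study's added threshold of 1.5 on the log2 scale, 4 members fell, namely Mrpl34, Mrps27, Mrps2 and Mrpl36, and 0 rose, beside 3.53% and 8.49% of all tested genes. In 26 members every Trpm7 cKO library was below every control library, and in 2 every one was above, compared with 17.9% and 16.6% of all tested genes.

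**Figure D1:**
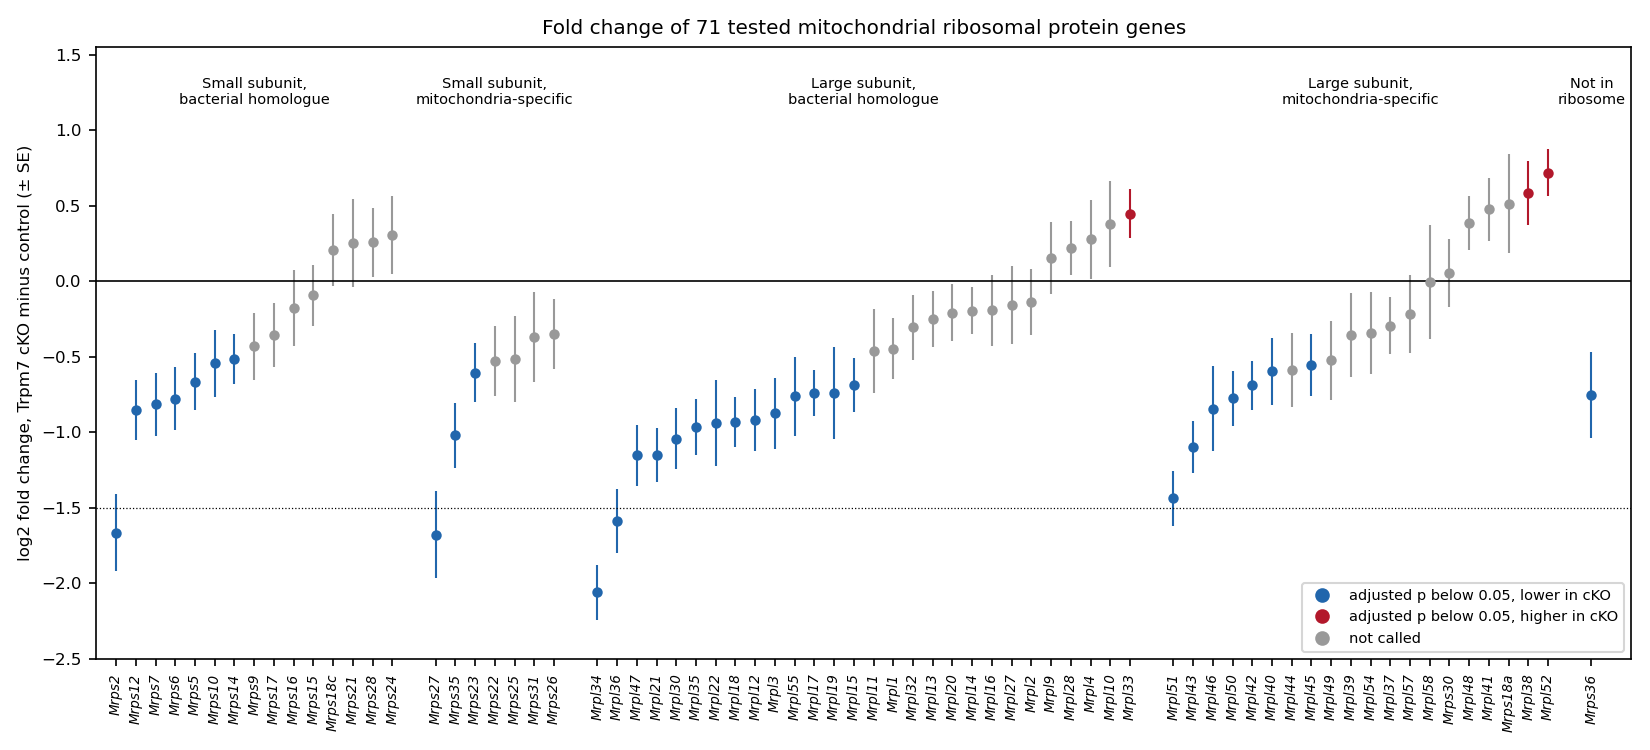
Fitted log2 fold change (Trpm7 cKO minus control) of the 71 tested members, each point with its standard error, grouped by subunit and origin and ordered within each group. Blue marks an adjusted p below 0.05 and lower, red an adjusted p below 0.05 and higher under TMM scaling, grey no call, and the dotted line a log2 value of -1.5. Blue points lie in all 4 ribosomal groups, from Mrpl34 at -2.06 upwards, while the 3 red points, Mrpl33, Mrpl38 and Mrpl52, are large-subunit genes that turned to negative values when counts were taken per 3000 sorted cells.

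Counts were also set against the reads available. In controls, 72 to 74 of the 77 members had at least 10 counts, whereas in Trpm7 cKO replicate 5, the smallest library, 20 had, and in replicate 3 it was 45. The 6 members below the filter were Mrpl23, with 3 to 13 counts per library, Mrpl24 with 0 to 3, Mrps11 with 4 to 18, Mrps33 with 2 to 15, and Mrps18b and Mrps34. Mrps18b and Mrps34 had 0 counts in all 10 libraries, which allows up to 3 counts, or 2.73 CPM in the largest library and 14.6 in the smallest, counting error only. In GENCODE the last 500 bases of 4 members are wholly overlapped by a gene on the opposite strand, and these 4 are Mrps18b, Mrps34, Mrpl24 and Mrps25, of which Mrps25 alone was tested. The part of such overlaps in the low counts was not tested.

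Members whose 3′ end is their own were counted apart, since reads of overlapping genes or of pseudogene copies may be assigned elsewhere. In 43 members the last 500 transcript bases neither overlap an exon of another gene nor share a run of 31 bases with one. Of these, 41 were tested, 15 fell and 2 rose, with a median log2 fold change of -0.37, so that 36.6% of them fell beside 24.1% of all tested genes. The other 30 tested members held 17 of the 32 that fell. Mrpl34, Mrps27 and Mrps2 belong to the 43, while Mrpl36 shares 22.8% of its end with Hsd17b2 and is uncertain to that extent. Among other genes named below, the end is partly overlapped or shared in Mrpl10, Mrpl12, Mrpl18, Mrpl19, Mrpl21, Mrpl22, Mrpl30, Mrpl33, Mrpl40, Mrpl41, Mrpl42, Mrpl43, Mrpl45, Mrpl49, Mrpl51, Mrps6, Mrps7, Mrps10, Mrps18c, Mrps24, Mrps35 and Mrps36. The highest shares among those that fell were 79.4% of the end of Mrpl19, which the opposite-strand gene Gcfc2 overlaps, and 73.0% of that of Mrpl22, shared with Gm6997.

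In the small subunit, 10 of 22 tested genes fell and 0 rose, with a median log2 fold change of -0.51. In the large subunit, 21 of 48 fell and 3 rose, with a median of -0.45. By origin, 7 of 15 small-subunit and 14 of 28 large-subunit genes with a bacterial homologue fell, beside 3 of 7 and 7 of 20 mitochondria-specific ones. The share that fell was lowest in the large-subunit mitochondria-specific genes, at 35%, where 24.1% of all tested genes fell and 24.6% rose. No test of the difference between these classes was made.

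The lowest fold change was that of Mrpl34 (ENSMUSG00000034880, GRCm38 chr8:71464959-71465747, plus strand), the counterpart of bacterial ribosomal protein L34. In control replicates 1 to 5 its normalized level was 122, 122, 146, 132 and 117 CPM, and in Trpm7 cKO replicates 1 to 5 it was 33.3, 23.9, 29.2, 38.1 and 22.1 CPM. The lowest control library thus stood far above the highest Trpm7 cKO library. Mrpl34 fell to 22.96% of the control mean (log2 fold change -2.06 ± 0.18 (SE), adjusted p = 4.36e-08, edgeR).

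Mrpl36, another small protein of the large subunit with a bacterial counterpart (chr13:73328513-73332178, plus strand), measured 122, 106, 144, 155 and 120.4 CPM in controls and 53.6, 53.4, 32.9, 43.1 and 11.04 CPM in Trpm7 cKO. The groups did not overlap, and Trpm7 cKO replicate 5, which rests on 2 counts, was the lowest of all (log2 fold change -1.59 ± 0.21 (SE), adjusted p = 5.70e-06, edgeR). Mrpl47, the counterpart of bacterial L29 at the exit of the peptide tunnel, fell as well, with 91.3 ± 6.78 CPM in controls and 37.8 ± 15.2 CPM in Trpm7 cKO libraries (mean ± SD, n = 5 each) (log2 fold change -1.15 ± 0.20 (SE), adjusted p = 0.000103). Its highest Trpm7 cKO value, 54.7 CPM, remained below its lowest control value of 83.3 CPM.

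Among the mitochondria-specific proteins of the large subunit, Mrpl51 was the most abundant member of all in controls (chr6:125191801-125196269, plus strand). It measured 195, 160.1, 202, 214 and 157 CPM in controls and 64.7, 66.2, 76.7, 86.2 and 33.1 CPM in Trpm7 cKO. No Trpm7 cKO library reached the lowest control, and the gene fell to 35.2% of the control mean (log2 fold change -1.44 ± 0.18 (SE), adjusted p = 2.43e-06, edgeR). Its end overlaps the microRNA gene Mir3098 over 17.4% of the last 500 bases. Mrpl43 also fell without overlap, with 84.1 ± 5.67 CPM in controls and 39.6 ± 4.77 CPM in Trpm7 cKO libraries (mean ± SD, n = 5 each) (log2 fold change -1.10 ± 0.17 (SE), adjusted p = 2.85e-05). Mrpl46 fell, with 32.6 ± 4.17 CPM in controls and 20.03 ± 8.20 CPM in Trpm7 cKO libraries (mean ± SD, n = 5 each) (log2 fold change -0.84 ± 0.28 (SE), adjusted p = 0.0172), and this call was lost without Trpm7 cKO replicate 4 (adjusted p = 0.0691).

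In the small subunit, Mrps2 (chr2:28468066-28471178, plus strand), counterpart of bacterial S2 and a protein of the body of the subunit, measured 75.6, 71.2, 101, 111 and 62.5 CPM in controls and 22.2, 33.1, 25.6, 33.1 and 5.52 CPM in Trpm7 cKO. All Trpm7 cKO libraries lay below all controls, although replicate 5 rests on 1 count (log2 fold change -1.66 ± 0.25 (SE), adjusted p = 2.19e-05, edgeR). Mrps27 (chr13:99344786-99415562, plus strand), a mitochondria-specific protein of the pentatricopeptide repeat family, which binds RNA, gave 70.6, 49.6, 81.5, 85.3 and 56.7 CPM in controls and 29.6, 29.4, 3.65, 19.9 and 11.04 CPM in Trpm7 cKO. The groups were again apart, although Trpm7 cKO replicates 3 and 5 rest on 1 and 2 counts (log2 fold change -1.68 ± 0.29 (SE), adjusted p = 7.04e-05, edgeR).

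Mrps12, the counterpart of the bacterial decoding-centre protein S12, fell, with 60.8 ± 7.51 CPM in controls and 34.02 ± 6.67 CPM in Trpm7 cKO libraries (mean ± SD, n = 5 each), with no overlap between groups (log2 fold change -0.85 ± 0.20 (SE), adjusted p = 0.00156, edgeR). Mrps7, a protein of the head of the small subunit, fell, with 69.2 ± 9.996 CPM in controls and 42.6 ± 13.2 CPM in Trpm7 cKO libraries (mean ± SD, n = 5 each) with overlap (log2 fold change -0.81 ± 0.21 (SE), adjusted p = 0.00308), Trpm7 cKO replicate 5 reaching 60.7 CPM. Mrps35 behaved likewise (log2 fold change -1.02 ± 0.22 (SE), adjusted p = 0.000592), its replicate 5 at 66.2 CPM standing within the controls and apart from the other Trpm7 cKO libraries at 25.8 to 36.5 CPM. Mrps23 fell without overlap (log2 fold change -0.60 ± 0.20 (SE), adjusted p = 0.0148), but lost the call without Trpm7 cKO replicate 2 (adjusted p = 0.0522). Mrps14, the most abundant small-subunit gene in controls, fell, with 135 ± 14.5 CPM in controls and 93.8 ± 20.7 CPM in Trpm7 cKO libraries (mean ± SD, n = 5 each) (log2 fold change -0.51 ± 0.17 (SE), adjusted p = 0.015), the highest Trpm7 cKO library, at 122.0 CPM, exceeding 1 control library, at 115.8 CPM.

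**Figure D2:**
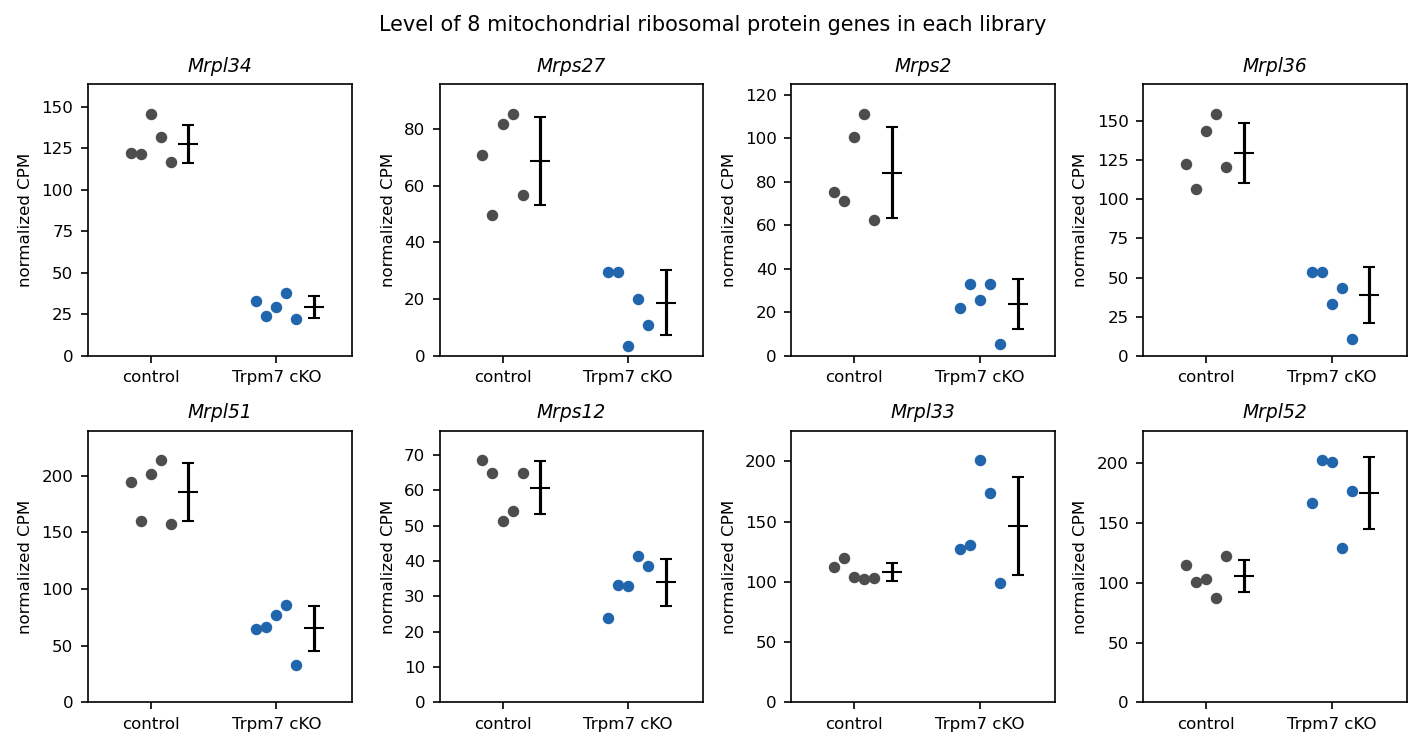
Normalized level (CPM, linear axis from 0) of 8 members in each library, with controls in grey and Trpm7 cKO in blue, and the mean ± SD of 5 libraries beside the points. In Mrpl34, Mrps27, Mrps2, Mrpl36, Mrpl51 and Mrps12 all blue points lie below all grey ones, in Mrpl33 the groups overlap, and in Mrpl52 all blue points lie above under TMM scaling but not when counts are taken per 3000 sorted cells.

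Upstream sequence was read for the members with the lowest or highest fold change in their class that passed the test and hold an ETS core, the letters CCGGAAG bound by factors such as GABPA, within the 100 bases before the RefSeq start. GABPA, also called NRF2, NRF1 and YY1 are known as regulators of nuclear genes for mitochondrial proteins. The stretches are shown to let the position of that core be compared between 4 genes that fell and 1 that rose, in GRCm38.p6, 5′ to 3′ on the gene's strand, ending at the last base before the start, with the core in capitals (CTTCCGG where it lies on the other strand).
Mrpl34 (chr8:71464826-71464925, plus strand, fell): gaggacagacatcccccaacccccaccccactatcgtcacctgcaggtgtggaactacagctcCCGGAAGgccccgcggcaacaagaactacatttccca
Mrpl43 (chr19:45006443-45006542, minus strand, fell): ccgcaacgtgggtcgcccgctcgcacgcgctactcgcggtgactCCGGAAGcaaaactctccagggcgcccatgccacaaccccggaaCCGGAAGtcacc
Mrpl51 (chr6:125192100-125192199, plus strand, fell): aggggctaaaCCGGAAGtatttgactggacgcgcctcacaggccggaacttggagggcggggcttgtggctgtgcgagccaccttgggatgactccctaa
Mrps27 (chr13:99344686-99344785, plus strand, fell): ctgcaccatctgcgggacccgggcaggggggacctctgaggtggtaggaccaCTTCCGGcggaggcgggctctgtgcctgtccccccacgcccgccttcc
Mrpl52 (chr14:54426809-54426908, plus strand, rose under TMM scaling): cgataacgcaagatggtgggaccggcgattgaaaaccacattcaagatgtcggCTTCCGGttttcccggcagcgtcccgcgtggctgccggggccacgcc

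The core began 37 bases before the RefSeq start in Mrpl34, 56 and 12 in Mrpl43, 90 in Mrpl51, 48 in Mrps27 and 47 in Mrpl52. In Mrpl51 the RefSeq start lies inside the gene as GENCODE places it, from chr6:125191801. Its stretch is therefore not upstream of the GENCODE start, and its distance compares with the others by RefSeq alone. Since these genes were chosen for holding the core, its presence in them says nothing about direction, and Mrps2, Mrpl36 and Mrpl47, which fell too, do not hold it in their windows. RefSeq windows of 250 bases before to 50 after the start were held for 68 of the 77 members. Searched on both strands, CCGGAAG lay in the windows of 36.8% of these members, 9.9% of all 27025 genes and 22.5% of the 6107 tested genes with a window. The NRF1 core CGCATGC lay in 11.8% of members and 8.0% of tested genes; GCATGCG, its reverse complement, can overlap it. The YY1 core ATGGCGG lay in 17.6% of members and 672 of the 6107 tested genes, and the E-box CACGTG in 7.4% of members and 12.5% of tested genes. Over all genes with a window the shares were 4.0%, 4.7% and 8.1%. Among the members with a window, 11 of 29 that fell and 12 of the 34 others tested held the ETS core. A match describes letters in this window and not a bound site.

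Some members start back to back with another gene, here by GENCODE starts and not the RefSeq starts used above. A protein-coding gene on the opposite strand began within 1000 bases upstream of 18 of the 77 members (23.4%), and of 10.7% of tested protein-coding genes. In 7 of these pairs both genes were tested, and in 2 of them both fell, namely Mrpl51 with the condensin subunit gene Ncapd2, whose starts are 100 bases apart, and Mrps27 with Ptcd2, 81 bases apart. Among all tested genes 24.1% fell and 24.6% rose. How often both genes fell in such pairs outside the members was not tested. Mrpl30 fell while Mitd1, 66 bases away, rose. Mrpl40 and Mrps12 fell while Hira and Sars2 did not pass the test, and Mrpl32 and Mrpl49 did not pass while the proteasome gene Psma2 fell and Fau, a cytosolic ribosomal protein gene, rose.

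**Figure D3:**
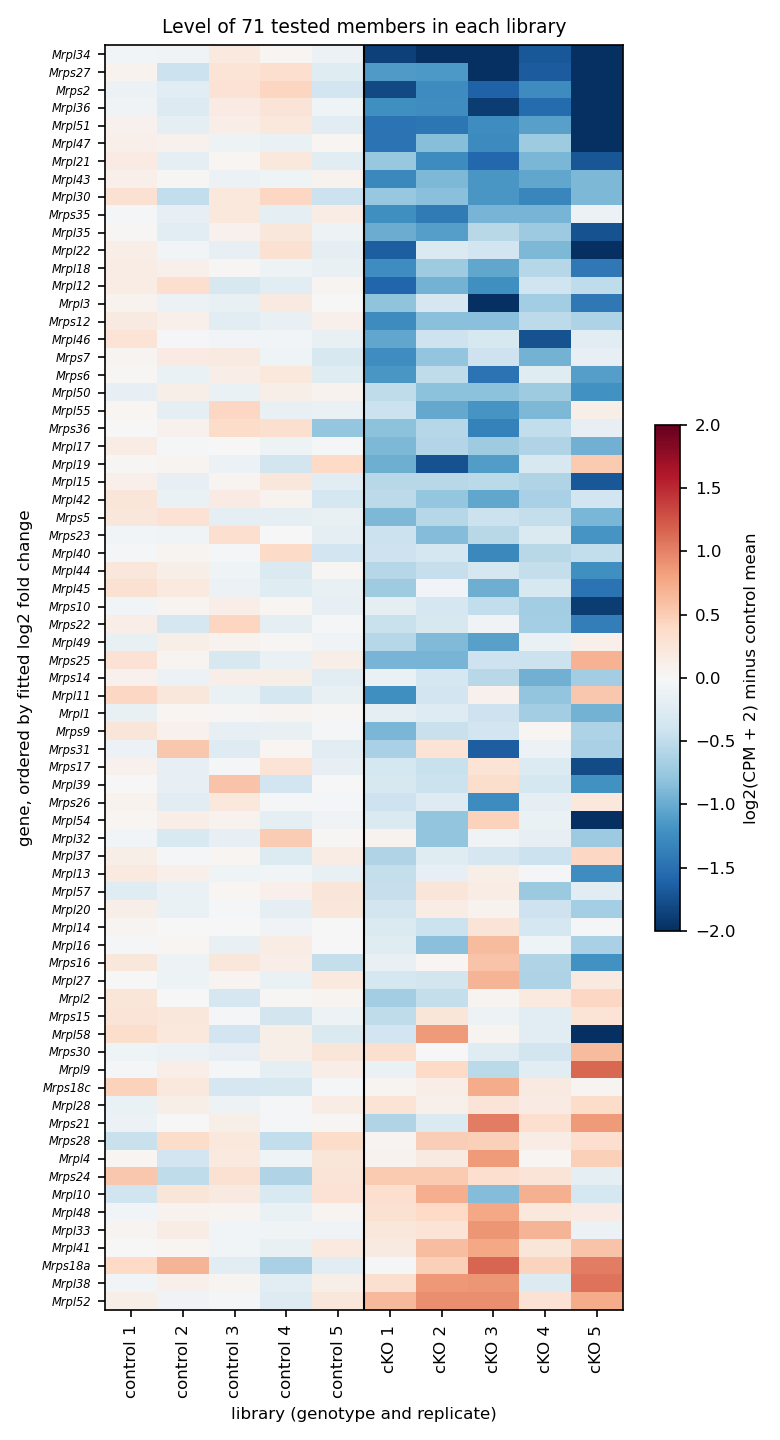
Level of each of the 71 tested members in each library as log2(CPM + 2) minus the mean of the controls, in the order of the fitted log2 fold change, with colours ending at 2 in either direction. The 5 Trpm7 cKO columns are blue in the upper rows, from Mrpl34 down, with many of the darkest shades in replicate 5, the library of 205986 counts. They are mostly red in the lowest rows, whose fitted values turn below 0 per 3000 sorted cells. Exceptions there include Mrpl38 in Trpm7 cKO replicate 4 and Mrpl33 in replicate 5, which lie below the controls' mean.

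More members lay below their control mean in each Trpm7 cKO library than in any control. Of the 71 tested members, 58, 52, 46, 57 and 49 were below their control mean in Trpm7 cKO replicates 1 to 5, compared with 26 to 42 in the control libraries. The median ratio to the control mean was 0.631 to 0.739 in Trpm7 cKO libraries and 0.949 to 1.04 in controls.

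Higher values were found in a small number of large-subunit genes, and each call depended on the scaling. On the MuSC list or per 3000 sorted cells, 0 members were called higher. The latter setting does not correct for depth and moved the median of all tested genes by -1.15. Mrpl52 (chr14:54426909-54429756, plus strand), a mitochondria-specific protein, measured 114, 100.2, 103, 87.3 and 123 CPM in controls and 166, 202, 201, 129 and 177 CPM in Trpm7 cKO. The lowest Trpm7 cKO library lay above the highest control (log2 fold change 0.72 ± 0.16 (SE), adjusted p = 0.000806, edgeR), but the fitted value was -0.46 per 3000 sorted cells. Mrpl38 gave 56.7, 62.99, 61.1, 50.2 and 63.7 CPM and 73.9, 109, 109.6, 48.05 and 127 CPM, with overlapping groups (log2 fold change 0.58 ± 0.21 (SE), adjusted p = 0.0289). It lost the call without control replicate 1 (adjusted p = 0.0523), control replicate 4 (0.0607) or Trpm7 cKO replicates 2 (0.106), 3 (0.072) or 5 (0.0654), and was -0.63 per 3000 cells. Mrpl33, the counterpart of bacterial L33, gave 108 ± 7.57 CPM in controls and 146 ± 40.5 CPM in Trpm7 cKO libraries (mean ± SD, n = 5 each) (log2 fold change 0.45 ± 0.17 (SE), adjusted p = 0.0303). Its call was lost without control replicates 3 (adjusted p = 0.0681) or 4 (0.0608), without Trpm7 cKO replicates 3 (0.118) or 4 (0.0991), and with the replicate number as a block (0.0646), and per 3000 cells it was -0.70. Without control replicate 4 or Trpm7 cKO replicate 3, only 1 member was called higher, beside 24.72% and 22.7% of all tested genes.

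Members with a known role beyond the bulk of the ribosome were set apart. Mrpl12, which forms the stalk that recruits translation factors and binds the mitochondrial RNA polymerase, gave 183, 209.6, 132, 142 and 172 CPM in controls and 53.6, 84.7, 69.4, 124 and 116 CPM in Trpm7 cKO. It fell without overlap (log2 fold change -0.92 ± 0.20 (SE), adjusted p = 0.00093, edgeR). Mrpl10, which anchors the stalk, gave 22.02 ± 5.11 CPM in controls and 25.7 ± 11.7 CPM in Trpm7 cKO libraries (mean ± SD, n = 5 each) and did not pass the test (log2 fold change 0.38 ± 0.28 (SE), adjusted p = 0.283). Mrpl45, which lies at the tunnel exit by the inner membrane, fell, with 96.3 ± 16.6 CPM in controls and 61.2 ± 23.3 CPM in Trpm7 cKO libraries (mean ± SD, n = 5 each) (log2 fold change -0.55 ± 0.21 (SE), adjusted p = 0.0321). This call was lost without control replicate 1 (adjusted p = 0.0936) or 2 (0.0751), or Trpm7 cKO replicate 1 (0.0678), 3 (0.0786) or 5 (0.0618). Mrpl44, a protein with a ribonuclease III-like fold, was lower in every Trpm7 cKO library than in any control, yet did not pass the test (log2 fold change -0.59 ± 0.24 (SE), adjusted p = 0.0511), and passed it without control replicate 4 (0.0399). Mrps22, mutated in some inherited mitochondrial disease, did not pass (log2 fold change -0.53 ± 0.23 (SE), adjusted p = 0.0679), and passed without control replicate 2 (0.0466). Mrpl41 missed the threshold with a positive value (log2 fold change 0.47 ± 0.21 (SE), adjusted p = 0.0656), and Mrpl58, a peptidyl-tRNA hydrolase built into the large subunit, had a value near 0 (log2 fold change -0.00 ± 0.38 (SE), adjusted p = 0.994).

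The 3 paralogues named S18 were measured in part. Mrps18c had 32.6 ± 8.51 CPM in controls and 38.5 ± 9.21 CPM in Trpm7 cKO libraries (mean ± SD, n = 5 each) (log2 fold change 0.21 ± 0.24 (SE), adjusted p = 0.496), and Mrps18a, a large-subunit protein, had 16.3 ± 6.87 CPM in controls and 25.6 ± 8.97 CPM in Trpm7 cKO libraries (mean ± SD, n = 5 each) (log2 fold change 0.51 ± 0.33 (SE), adjusted p = 0.208), while Mrps18b was listed at 0. Neither of the tested paralogues passed the test, nor did Mrps30 (log2 fold change 0.05 ± 0.22 (SE), adjusted p = 0.898). Mrps24 (0.31 ± 0.26 (SE)), Mrps28 (0.26 ± 0.23 (SE)), Mrps26 (-0.35 ± 0.23 (SE)) and Mrps31 (-0.37 ± 0.30 (SE)), the highest log2 fold changes in their classes, did not pass either. Mrps36 fell, with 32.2 ± 9.28 CPM in controls and 19.4 ± 6.15 CPM in Trpm7 cKO libraries (mean ± SD, n = 5 each) with overlap (log2 fold change -0.76 ± 0.28 (SE), adjusted p = 0.0341), but lost the call without control replicates 2 (adjusted p = 0.0521), 3 (0.0736) or 4 (0.0748) or Trpm7 cKO replicates 1 (0.0722), 2 (0.0507) or 3 (0.0769), and 39.8% of its end is shared with other genes, among them Mrps36-ps1.

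The other 40 tested members are given together. Of these, 16 fell, namely Mrpl3, Mrpl15, Mrpl17, Mrpl18, Mrpl19, Mrpl21, Mrpl22, Mrpl30, Mrpl35, Mrpl40, Mrpl42, Mrpl50, Mrpl55, Mrps5, Mrps6 and Mrps10, from a log2 fold change of -1.15 in Mrpl21 to -0.54 in Mrps10, and their Trpm7 cKO means stood at 42.8% to 67.5% of control. In 13 of the 16 the groups did not overlap, and in Mrpl19, Mrpl40 and Mrpl55 they did. The remaining 24 did not pass the test, with log2 fold changes from -0.52 to 0.38, of which 19 were below 0. Among all tested genes 24.1% fell, and in 17.9% every Trpm7 cKO library was below every control.

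Each 3′ tag counts a molecule once, so that levels in CPM were not divided by transcript length. In controls the tested members ranged from 16.3 to 186 CPM, and the 5 highest were Mrpl51, Mrpl30, Mrpl12, Mrpl21 and Mrpl42. Members were also split at their median level over all 10 libraries, 47.4 CPM. Of the 35 above it, 22 fell (62.9%) and 3 rose, with a median log2 fold change of -0.69, where 32.6% of all tested genes above that level fell. Of the 36 at or below it, 10 fell (27.8%) and 0 rose, with a median of -0.36, where 15.2% of all tested genes fell. The median standard error of the members was 0.19 above and 0.26 at or below this level.

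Summed over members, the level was 4804 ± 208 in controls and 3376 ± 212 in Trpm7 cKO (mean ± SD, n = 5 each), in normalized CPM. The small subunit summed to 1287 ± 77.3 CPM in controls and 893 ± 70.1 in Trpm7 cKO, and the large subunit to 3485 ± 139 and 2463 ± 146 (mean ± SD, n = 5 each), so that they stood at 69.4% and 70.7% of control. The ranges were 1178 to 1374 and 820 to 983 CPM for the small subunit, and 3329 to 3694 and 2308 to 2649 CPM for the large, without overlap. The ratio of small to large was 0.369 ± 0.0153 in controls and 0.362 ± 0.00705 in Trpm7 cKO, with overlapping ranges.

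**Figure D4:**
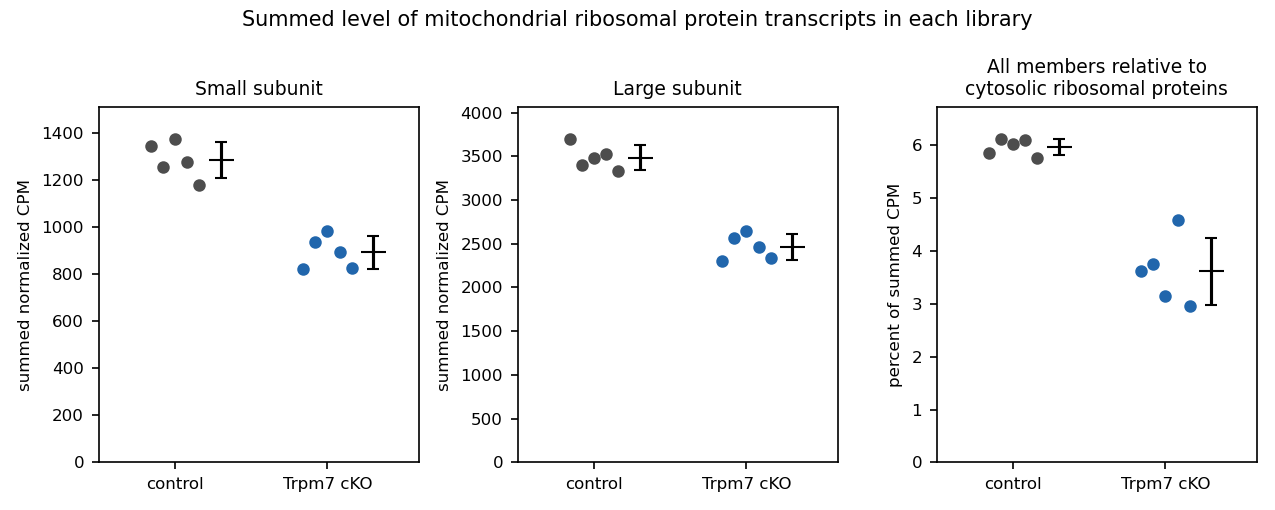
Summed normalized CPM of small-subunit and large-subunit members, and the summed level of all members as a percent of that of cytosolic ribosomal proteins, in each library, on linear axes from 0, with the mean ± SD of 5 libraries beside the points. Trpm7 cKO points (blue) lie below all control points (grey) in each panel, at 70.7% of the control mean for the large subunit.

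The summed level was also read against other values that moved with genotype. Trpm7 cKO replicate 2 had the lowest leukocyte marker sum of its group, 1647 CPM, and a member sum of 3519 CPM. Replicate 4 had the highest, 7145 CPM, with a member sum of 3382 CPM. In replicates 1, 3 and 5 the leukocyte sums were 4209, 4216 and 6732 CPM, and the member sums 3145, 3643 and 3190 CPM. The lowest member sum among controls was 4525 CPM. In a fit with the leukocyte score as a covariate, only Mrpl19 and Mrpl34 were still called lower among the 32. Calls were lost over the whole table in that fit, with 1.24% of all tested genes lower, beside 24.1% in the main fit. The squared correlation of that score with genotype was 0.884, the median standard error rose to 0.63, and 26 of the 32 remained below 0. Markers of other cell types moved with genotype as well. All 3 tested endothelial markers of 10 were higher, with a summed level of 6.44 to 78.7 CPM in controls and 134 to 756 CPM in Trpm7 cKO, as were 5 of 6 tested fibroblast markers of 10, with 1412 to 2649 CPM and 2638 to 5222 CPM. Cdh5, an endothelial marker with 0 to 8 control counts, passed the filter only through Trpm7 cKO libraries, whereas the sums cover all listed markers. The study's sorting profile takes YFP-positive cells, and its protocol for uninjured muscle adds antibodies against CD45, a leukocyte antigen, CD31, an endothelial one, and Sca-1; a further gate for these libraries is not given in the sources used here. The part of RNA from such cells in the members' levels beyond these values was not tested. Without Trpm7 cKO replicates 4 and 5 together, 31 members were lower and 4 higher, beside 22.93% and 23.52% of all tested genes.

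Other parts of mitochondrial translation were measured beside the members. Their counts stand beside 24.1% of all tested genes that fell and 24.6% that rose. Of the 5 ribosome components with other names, Dap3 (0.23 ± 0.20 (SE) on the log2 scale), Chchd1 (-0.12 ± 0.18 (SE)), Aurkaip1 (-0.16 ± 0.19 (SE)) and Gadd45gip1 (0.75 ± 0.38 (SE)) did not pass the test, and Ptcd3 was below the filter. Among 7 tested translation factors, 5 fell and 0 rose, with Lrpprc, which stabilizes mitochondrial mRNAs, at -1.62 ± 0.17 (SE), the ribosome recycling factor Mrrf at -1.41 ± 0.25 (SE), the membrane insertase Oxa1l at -0.62 ± 0.20 (SE) and the elongation factor Tsfm at -0.52 ± 0.19 (SE). Of 10 tested genes for charging mitochondrial tRNAs, 6 fell and 0 rose. Qrsl1, a subunit of the enzyme that makes glutaminyl-tRNA, was at -1.22 ± 0.37 (SE), the tyrosyl-tRNA synthetase Yars2 at -1.22 ± 0.27 (SE), Gatc at -0.75 ± 0.24 (SE) and Hars2 at -0.77 ± 0.28 (SE). Of 15 tested genes for assembly and rRNA modification, 5 fell and 0 rose, with C1qbp at -2.07 ± 0.20 (SE), the small-subunit GTPase Eral1 at -1.45 ± 0.31 (SE), Ndufab1 at -0.80 ± 0.17 (SE) and Ngrn at -0.66 ± 0.27 (SE). In C1qbp the controls measured 1663, 1175, 1578, 1709 and 1188 CPM and the Trpm7 cKO libraries 346, 381, 296, 492 and 182 CPM, with no overlap (log2 fold change -2.07 ± 0.20 (SE), adjusted p = 1.47e-07, edgeR).

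The cytosolic ribosomal proteins differed from the members in direction under TMM scaling. Of 77 tested, 7 fell and 43 rose, with a median log2 fold change of 0.47 beside -0.51 for the members, but their median was -0.05 when scaled on the MuSC list and -0.73 per 3000 sorted cells, where the members stood at -0.97 and -1.66. The members' summed level was 5.97 ± 0.157% of that of the cytosolic proteins in controls and 3.62 ± 0.636% in Trpm7 cKO (mean ± SD, n = 5 each), without overlap, and this ratio does not depend on the scaling. Nuclear subunits of the respiratory chain, with 29 of 76 lower and 8 higher, had a median of -0.26 under TMM scaling, which became 49 lower, 0 higher and -0.74 on the MuSC list, and 64 lower, 0 higher and -1.42 per 3000 sorted cells. Of all tested genes, 24.1% fell and 24.6% rose under TMM scaling. The share that fell was 41.15% on the MuSC list and 66.58% per 3000 sorted cells. For the protein genes of the mitochondrial genome, whose messages the ribosome reads, 6 of 9 tested fell and 1 rose, with a median of -1.16, but with the leukocyte score as a covariate 0 fell, 0 rose and the median was 0.32. In the covariate fit 1.24% of all tested genes fell.

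**Figure D5:**
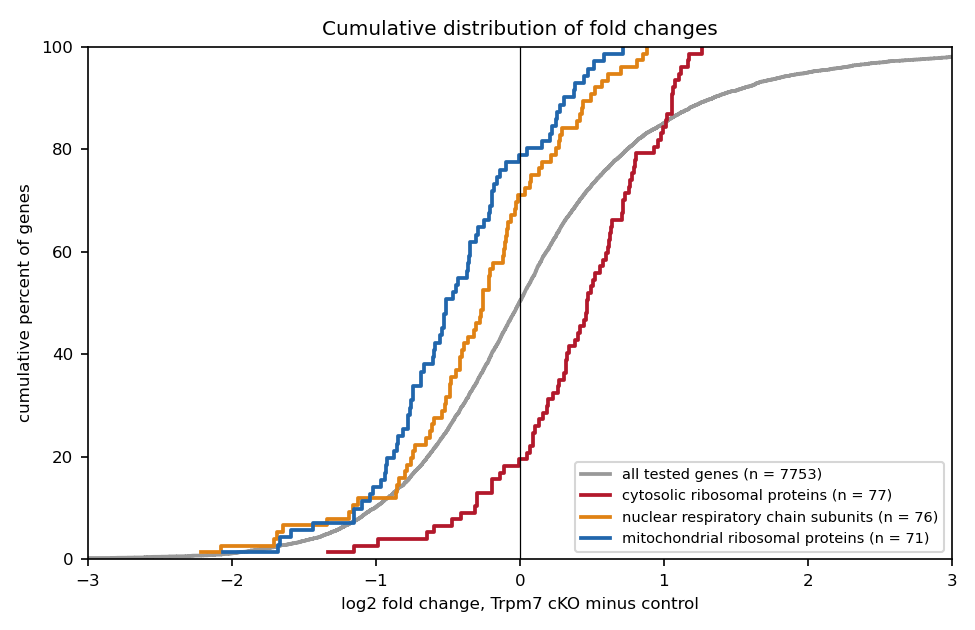
Cumulative percent of genes (vertical) at or below a fitted log2 fold change (horizontal, Trpm7 cKO minus control, TMM scaling, shown from -3 to 3) for all 7753 tested genes, 77 cytosolic ribosomal proteins, 76 nuclear respiratory chain subunits and the 71 members. The member curve crosses the middle at -0.51, left of all genes at -0.01, while the cytosolic curve crosses at 0.47, a value that becomes -0.73 per 3000 sorted cells.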

How the data were processed

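Libraries were made by CEL-Seq2, a 3′-end method with unique molecular identifiers (UMIs). Per the labels and methods, the authors extracted UMIs (UMI-tools 1.1.4), trimmed reads (Trim Galore 0.6.10), aligned them to GRCm38 (HISAT2 2.2.1), assigned them to genes (featureCounts 2.0.6), removed UMI duplicates and tested genotypes with DESeq2 1.30.1. The annotation release and strand setting are not given in the sources used here. The deposited values are whole-number counts per gene without normalization, from 205986 to 1097709 per library, and all columns were mapped to libraries by label.

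The table holds 24620 entries under 24608 symbols, and the entry with the larger total carried a repeated symbol. The tests were run in edgeR 4.0.16 (R 4.3.3), with filterByExpr (minimum count 10, minimum total 15), TMM factors and a quasi-likelihood F test with genotype as the only term, two-sided, adjusted by Benjamini-Hochberg over 7753 genes. Normalized CPM are counts divided by the TMM-scaled total of tested genes and multiplied by 1e+06. Within a genotype, no 2 libraries were closer than 1.50 in chi-square per degree of freedom, where counting noise gives 1, and all were kept as replicates. The script was tested on simulated data with fewer changed genes than were called here and no mix of cell types. That run checks the code and not the calls made here.

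The members, lists and named genes were chosen with earlier results of these data known. Named genes were, in each of 4 classes, the 3 lowest and 2 highest log2 fold changes among tested members with a mean of at least 20 CPM, the most abundant member of each subunit, and genes fixed for their roles. In the other lists of mitochondrial translation, named genes were the 2 lowest and 2 highest of those called. Ends of 500 bases were compared with GENCODE vM21 transcripts, and promoters came from RefSeq (GRCm38.p6), which held 68 of 77 members. Alternatives were RLE factors, totals alone, scaling on the MuSC list or per 3000 sorted cells, other filters, DESeq2 1.42.0, limma-voom (limma 3.58.1), thinning, the replicate number as a block, a leukocyte covariate, and each library left out in turn. Scaling on the MuSC list used its summed counts without the genes of lowest and highest total, the latter being Myod1. Leaving out Trpm7 cKO replicates 4 and 5 together was added after seeing the data.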

Additional observations from a re-analysis of the deposited data

Results flagged for a closer look

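In 64 sets of 5 libraries, namely the named members and the summed level in each genotype, 3 had a library whose gap to its nearest neighbour was large for the range of the set by Dixon's criterion, where chance gives about 1 in 20. Mrpl46 was at 39.8 CPM in control replicate 1, with the other controls at 28.9 to 32.0. Mrps18c was at 54.8 CPM in Trpm7 cKO replicate 3, with the others at 33.1 to 36.5. Mrps35 was at 66.2 CPM in Trpm7 cKO replicate 5, with the others at 25.8 to 36.5.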

How the results depend on the processing

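The members' median log2 fold change was below 0 under each alternative run, and relative to that of all tested genes it lay between -0.42 and -0.59, apart from -0.81 without a filter and -0.30 with the leukocyte covariate. The scalings that moved the median of all tested genes by over 0.1 did so by 0.10 (library totals alone), -0.48 (MuSC list) and -1.15 (per 3000 sorted cells).

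With library totals alone, 25 members were lower and 5 higher, the median was -0.41 and the log2 ratio of the summed level -0.43 (main -0.51). Of all tested genes, 19.4% were lower and 27.91% higher with totals alone. On the MuSC list, 51 were lower, 0 higher and 9 past both thresholds, with -0.97 and -0.99. In that setting 41.15% of all tested genes were lower and 12.11% higher. Per 3000 sorted cells, 64 were lower, 0 higher and 41 past both thresholds, with -1.66 and -1.67. There, 66.58% of all tested genes were lower and 4.901% higher. Without a filter, 38 were lower and 1 higher, and the median was -0.64, and with a minimum count of 20, 27 were lower and 5 higher. All tested genes stood at 12.02% lower and 13.15% higher without a filter, and at 25.8% and 27.02% with a minimum count of 20. Thinned to 205980 counts per library, which left 35 members, 17 were lower with a median of -0.59, beside 22.74% of all tested genes lower. With the leukocyte covariate, 2 were lower, 0 higher and 2 past both thresholds, with a median of -0.34, where 1.24% of all tested genes were lower and 3.97% higher. The members with an end of their own gave 15 lower and a median of -0.37, with 41 tested. DESeq2 called 28 lower and 3 higher, limma-voom 30 and 2. The shares of all tested genes were 22.14% lower and 24.29% higher with DESeq2, and 23.51% and 24.25% with limma-voom. Leaving out each library in turn gave 27 to 31 lower, 1 to 3 higher, 3 to 5 past both thresholds and a median of -0.50 to -0.42, the last of these without Trpm7 cKO replicate 1. Between 20.46% and 23.6% of all tested genes were lower in these fits.

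Genes whose sign turned were these. On the MuSC list, Mrpl10 was at -0.10, Mrpl33 at -0.0036, Mrpl41 at -0.0067, Mrps18c at -0.27, Mrps24 at -0.21, Mrps28 at -0.22 and Mrps30 at -0.45. Per 3000 sorted cells, Mrpl10 was at -0.72, Mrpl33 at -0.70, Mrpl38 at -0.63, Mrpl41 at -0.69, Mrpl52 at -0.46, Mrps18a at -0.66, Mrps18c at -0.96, Mrps24 at -0.82, Mrps28 at -0.89 and Mrps30 at -1.11. With the leukocyte covariate, Mrpl46 was at 0.0697, Mrpl58 at 1.74, Mrps14 at 0.26, Mrps18a at -0.34, Mrps18c at -0.21, Mrps22 at 0.22 and Mrps31 at 0.14. Mrpl58 was at 0.0062 with RLE factors, 0.10 with totals alone, 0.26 without Trpm7 cKO replicates 4 and 5, and -0.47 to 0.14 without single libraries. Mrps30 was at -0.14 without a filter and -0.0708 to 0.17 without single libraries. The cause was not tested.

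The replicate numbers are shared by both genotypes, and the main fit did not pair them. Deviations of same-numbered libraries from their group means had correlations of -0.12 to 0.18. Differently numbered libraries were not compared, so these values do not settle whether libraries were handled as pairs. With the replicate block, 30 members were lower and 2 higher, with a median of -0.48, and among named genes Mrpl33 lost its call. Of all tested genes, 22.68% were lower and 23.4% higher with that block. Depth limits the low members: where a library held 205986 counts, 20 of 77 had at least 10.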
